A study of Bos taurus with 4 samples.

Results

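Chromatin modifying and remodelling enzymes were followed in bovine gamma delta T cells exposed to apple polyphenol. The members were chosen by gene symbol alone, from the platform's table that pairs probe sets with genes: every single symbol of 18 families (KDM, KMT, KAT, HDAC, SIRT, SMARC, CHD, SETD, PRMT, BRD, DNMT, TET, EZH, ARID, ING, JMJD, PHF and CBX, each but SMARC followed by a digit). This gave 90 genes of the 9155 with a name on the array, read by 154 of 24016 probe sets. No TET gene was among them.

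The tested cells came from calves 301 and 303 and were kept for 4 h with an apple polyphenol extract (APP, 42.2 µg/ml in the design text). The control cells of the same 2 calves received phosphate-buffered saline (PBS), the vehicle. All cells had been sorted from blood to over 97% purity, per the labels, and rested overnight. The labels put the calves at 1 to 6 months of age, while the design text calls them neonatal. With 1 array per calf and treatment there were 2 APP and 2 PBS arrays, and no other agent or genotype is named.

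Chromatin enzymes decide how tightly DNA is packed and which genes can be read. Writers add acetyl or methyl groups to histones or DNA, erasers remove them, readers bind the marked tails, and remodellers spend ATP to slide or evict nucleosomes. In T cells, activation within hours is known to be accompanied by opening of chromatin at cytokine genes, and these enzymes act in large complexes (SWI/SNF, NuRD, SIN3, Polycomb, TIP60) that share subunits. A transcript level says nothing about the activity of the enzyme.

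The deposited values are ratios of each probe set's signal to its own median over the 4 arrays, and were taken to log2. Values of 2 genes can therefore be compared as changes and not as levels. For the same reason it could not be checked whether cell type markers were present or absent, and only their changes are known. Of 8 measured genes on the gamma delta T cell list, 5 fell and 1 rose (CD5, by 0.62) in APP. Most of these genes, such as the CD3 chains, are not particular to gamma delta T cells. Of 3 B cell markers 2 fell, and of 7 monocyte and dendritic cell markers 3 rose, CD68 by 1.90 in calf 301 and 2.71 in calf 303. Of the gamma delta T cell markers, CD7 fell by 1.58 and CD163L1 (WC1) by 1.08, and the list's median was -0.38. Of 3 alpha beta T cell markers CD8A rose and CD8B fell. Both were lower in calf 301 than in calf 303 under each treatment. CD8A was at -0.29 and -1.69 in the APP and PBS arrays of calf 301, against 0.98 and 0.22 in those of calf 303. CD8B was at -1.70 and -1.06 in calf 301, against 0.59 and 1.24 in calf 303. None of 4 NK cell, 2 platelet or 3 red cell markers passed. Over all genes 29.7% fell and 23.0% rose, and the counts of these short marker lists were not tested against those shares. In bulk cells fewer cells of a type and less RNA per cell cannot be told apart, and the part of these markers in the changes below was not tested.

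More members fell than rose. A gene was called where limma, fitted with a term for the animal, gave an adjusted p of 0.05 or less over all genes. By that rule 32 of 90 members (35.6%) fell and 15 (16.7%) rose, while 43 did not pass. Among all genes 29.7% fell and 23.0% rose, so the members' shares were near the background and are no result about them. The median log2 change of the members was -0.08, beside 0.01 over all genes, and the median size regardless of sign was 0.33 and 0.32. In the separate calves the members' median was -0.09 (calf 301) and -0.08 (calf 303).

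The changes of the members were moderate. At least 2-fold falls in both calves were seen for 6 members (6.67%, against 6.29% of all genes), namely SMARCA2, PRMT2, CBX6, HDAC6, HDAC1 and EZH1. No member rose 2-fold in both calves, against 3.50% of all genes. Both APP arrays lay below both PBS arrays for 42 members (46.7%, all genes 37.2%) and above them for 23 (25.6%, all genes 36.6%). Every one of the 47 called members was among these. Limma's standard error of a member's change lay between 0.095 and 0.172.

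**Figure D1:**
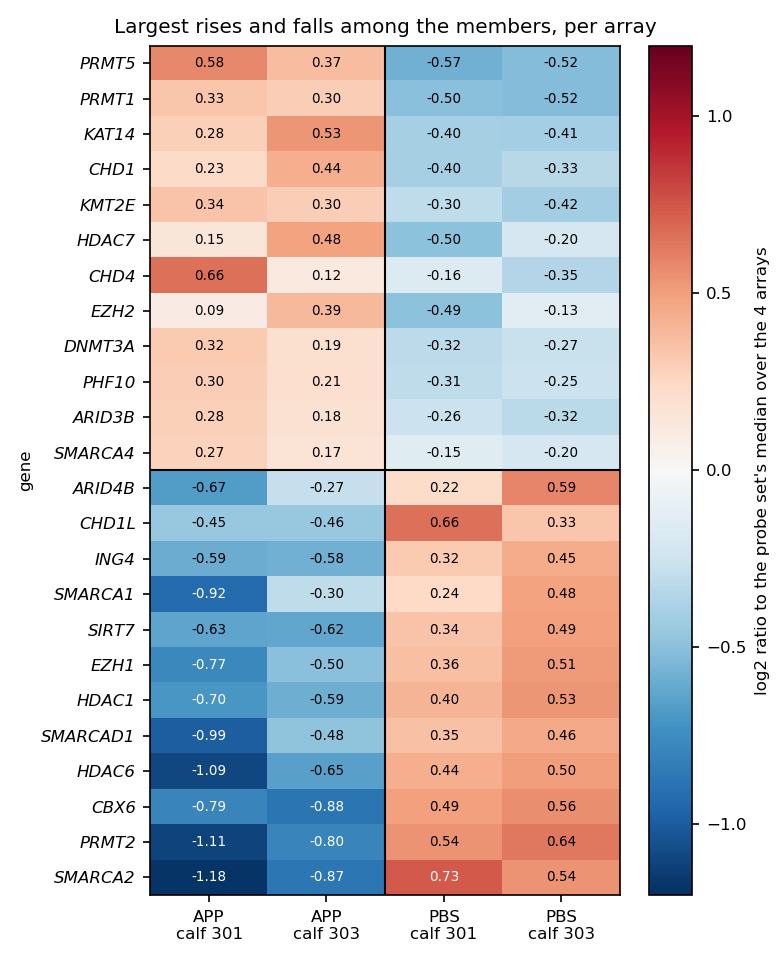
Log2 ratio of each array to the probe set's median over the 4 arrays (colour and printed value) for the 12 strongest risers and the 12 strongest fallers among the members, genes down the page and arrays across, APP left of PBS. The upper rows run from 0.09 to 0.66 in APP and lie below 0 in PBS, and the lower rows run from -1.18 to -0.27 in APP and lie above 0 in PBS.

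Direction depended on the scale on which arrays were set against each other. The spiked-in bacterial hybridization controls (14 probe sets) were higher in APP by 0.76 in calf 301 and 0.94 in calf 303. Scaled to them, the median of all genes moved to -0.84, no member rose and 81 fell, where 3.12% of all genes rose and 89.4% fell. The rises and falls below are therefore relative to the typical gene of each array. A difference between 2 members on the same arrays does not depend on this scale.

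Among the ATPases of SWI/SNF, the remodeller that evicts nucleosomes, the alternative motors moved in opposite directions. SMARCA2 (BRM) stood at -1.18 and -0.87 in the APP arrays of calves 301 and 303, against 0.73 and 0.54 in their PBS arrays. This was the largest fall of any member, 3.16-fold (log2 change -1.66 ± 0.36, SD, n = 2 calves, adjusted p = 9.62e-05). SMARCA4 (BRG1) was at 0.27 and 0.17 in APP cells and at -0.15 and -0.20 in PBS cells. It rose 1.32-fold (0.40 ± 0.04, adjusted p = 0.0117), with changes of 0.08 to 0.74 over its 5 probe sets. The distance between the ATPase genes, SMARCA4 minus SMARCA2, widened by 2.34 in calf 301 and 1.78 in calf 303, a pair picked after the values had been seen.

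Of 9 SWI/SNF subunit genes, 2 rose, 2 fell and 5 did not pass, with a median of -0.17. Over all genes 23.0% rose and 29.7% fell. PHF10, a subunit of the PBAF form, was at 0.30 and 0.21 in APP arrays and at -0.31 and -0.25 in PBS arrays. It rose by 0.53 ± 0.10 (SD, n = 2 calves, adjusted p = 0.00382). BRD9, found in the non-canonical form, fell by 0.49, to -0.33 and -0.21 in APP arrays against 0.17 and 0.27 in PBS arrays. The core subunit SMARCB1 changed by 0.02 (adjusted p = 0.861), SMARCE1 by -0.22 (0.0996), SMARCD3 by -0.24 (0.11) and the PBAF reader BRD7 by 0.19 (0.152). ARID1A, the DNA-binding subunit of the BAF form, showed a change of -0.33 in calf 301 and -0.003 in calf 303.

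Of 12 other ATPases of the SNF2 superfamily 3 rose and 4 fell (median -0.06), beside rises in 23.0% and falls in 29.7% of all genes. SMARCAD1, a remodeller linked to heterochromatin maintenance, was at -0.99 and -0.48 in APP arrays and at 0.35 and 0.46 in PBS arrays, and fell 2.20-fold (adjusted p = 0.000289). The ISWI motors differed in direction: SMARCA1 fell by 0.97 ± 0.27 and SMARCA5 rose by 0.32 ± 0.05 (SD, n = 2 calves each). SMARCA1 read -0.92 and -0.30 in APP arrays against 0.24 and 0.48 in PBS arrays, and SMARCA5 read 0.20 and 0.09 against -0.09 and -0.27. CHD1L, a remodeller activated at DNA damage by poly(ADP-ribose), fell 1.93-fold, with -0.45 and -0.46 in APP arrays and 0.66 and 0.33 in PBS arrays. SMARCAL1, which reanneals DNA at stalled forks, fell by 0.52 (adjusted p = 0.00395).

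Beside SMARCA5, the risers of that group were CHD genes. CHD1, a remodeller that travels with elongating polymerase, was at 0.23 and 0.44 in APP arrays and at -0.40 and -0.33 in PBS arrays. Its rise was 1.62-fold (0.70 ± 0.10, SD, n = 2 calves, adjusted p = 0.00104), with 0.50 and 0.90 for its probe sets. CHD4, the ATPase of the NuRD deacetylase complex, was at 0.66 and 0.12 in APP arrays and at -0.16 and -0.35 in PBS arrays, a rise of 0.64 ± 0.25 (adjusted p = 0.00339). All 4 of its probe sets had positive changes, from 0.50 to 0.82, and 3 were called. Its paralogue CHD3 changed by 0.10 (adjusted p = 0.435), CHD6 by 0.27 (0.0603), CHD8 by -0.21 (0.097) and CHD9 by -0.22 (0.0993).

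CHD2 was the member whose probe sets disagreed most. Its average of 0.22 did not pass (adjusted p = 0.112), yet of its 5 probe sets 2 rose, by 0.45 and 0.85, and 1 fell, with -0.81 in calf 301 and -0.90 in calf 303. No other member had probe sets called in both directions. Whether they read different transcripts of the gene is not given in the sources used here.

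**Figure D2:**
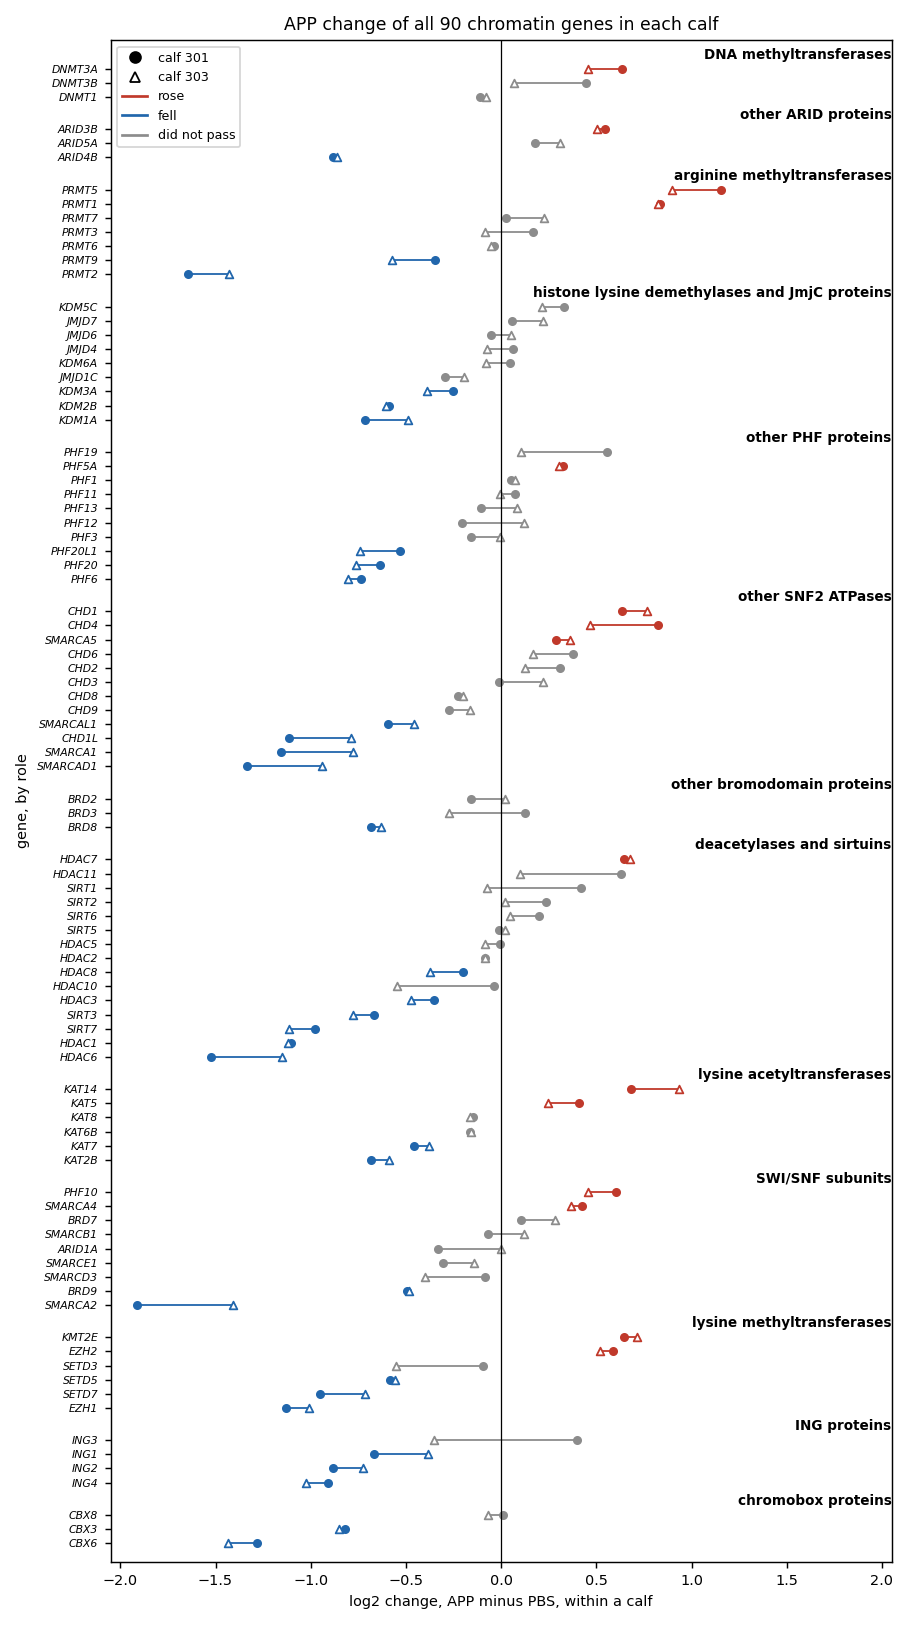
Log2 change, APP minus PBS, of all 90 members by role, with a filled circle for calf 301, an open triangle for calf 303 and the line joining them coloured by limma's call at an adjusted p of 0.05. The markers of a gene lie on the same side of 0 for 75 genes and on opposite sides for 15, none of which was called.

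Histone deacetylases erase acetyl marks. Of 15 deacetylase and sirtuin genes 6 fell, 1 rose and 8 did not pass (median -0.08), where 29.7% of all genes fell and 23.0% rose. These and the counts of the other role groups were not tested against the rest of the array. HDAC6, whose main known substrate is cytoplasmic tubulin, was at -1.09 and -0.65 in APP arrays and at 0.44 and 0.50 in PBS arrays. It fell 2.53-fold (-1.34 ± 0.26, SD, n = 2 calves, adjusted p = 0.000135). HDAC1, a catalytic subunit of NuRD, SIN3 and CoREST, was at -0.70 and -0.59 in APP arrays and at 0.40 and 0.53 in PBS arrays. Its fall of 2.16-fold was close to equal in the calves (-1.11 and -1.12, adjusted p = 0.000114). HDAC2, its close paralogue in the same complexes, changed by -0.09 and -0.08 (adjusted p = 0.485), with -0.21 to 0.11 over 3 probe sets.

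HDAC7 was the riser of the group. A class IIa deacetylase known to repress genes during T cell development, it was at 0.15 and 0.48 in APP arrays and at -0.50 and -0.20 in PBS arrays. Calf 303 stood higher under both treatments, and the change was alike, 0.64 and 0.68 (1.58-fold, adjusted p = 0.00116). Falls were also called for HDAC3 (-0.41), the catalytic partner of the NCOR corepressors, and for HDAC8 (-0.29, adjusted p = 0.0477). The call of HDAC8 was lost when arrays were centred or quantile normalized, with the other probe set rules and without the term for the animal. HDAC5 changed by -0.05 (adjusted p = 0.715), HDAC10 by -0.29 (-0.04 for calf 301 and -0.55 for calf 303, 0.109), and HDAC11 by 0.63 and 0.10 (0.0624).

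Sirtuins are deacylases that need NAD. SIRT7, a nucleolar member, was at -0.63 and -0.62 in APP arrays and at 0.34 and 0.49 in PBS arrays. It fell 2.06-fold, and both of its probe sets were called. SIRT3, which acts in mitochondria, fell 1.65-fold (-0.72 ± 0.08, SD, n = 2 calves), with -1.02 and -0.42 for its probe sets. SIRT1, SIRT2, SIRT5 and SIRT6 did not pass, with changes of 0.17, 0.13, 0.003 and 0.12 and with APP and PBS values that overlapped.

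Acetyltransferases, which write the marks that deacetylases erase, gave 2 rises and 2 falls among 6 genes (median -0.16). Rises were called for 23.0% and falls for 29.7% of all genes. KAT14, a subunit of the ATAC complex, was at 0.28 and 0.53 in APP arrays against -0.40 and -0.41 in PBS arrays. It rose 1.75-fold (0.81 ± 0.18, SD, n = 2 calves, adjusted p = 0.000765). KAT5 (TIP60), the catalytic subunit of the NuA4 complex, rose by 0.33 (adjusted p = 0.0296). KAT2B (PCAF), of the SAGA and ATAC complexes, stood at -0.34 and -0.41 in APP arrays and at 0.34 and 0.18 in PBS arrays, a fall of 0.64 (adjusted p = 0.00149). Its 4 probe sets ran from -1.31 to -0.06, and 3 were called as falls. KAT7 (HBO1) fell by 0.42, while KAT8 (MOF) changed by -0.16 (adjusted p = 0.204) and KAT6B by -0.16 (0.195).

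Arginine methyltransferases held both the largest rise and the second largest fall of the members. PRMT5, the main enzyme of symmetric dimethylation, was at 0.58 and 0.37 in APP arrays and at -0.57 and -0.52 in PBS arrays. Its rise of 2.03-fold (1.02 ± 0.18, SD, n = 2 calves, adjusted p = 0.000269) was the only one of the members with a mean above 2-fold. PRMT1, the main enzyme of asymmetric dimethylation, was at 0.33 and 0.30 in APP arrays and at -0.50 and -0.52 in PBS arrays, and rose 1.77-fold. Its probe sets differed in size, 1.49 for one, which was called, and 0.17 for the other, which was not (adjusted p = 0.274).

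PRMT2, an enzyme known as a coactivator of nuclear receptors, was at -1.11 and -0.80 in APP arrays and at 0.54 and 0.64 in PBS arrays. It fell 2.90-fold (-1.54 ± 0.15, SD, n = 2 calves, adjusted p = 4.98e-05), with -1.65 and -1.43 for its probe sets. On the same arrays PRMT5 minus PRMT2 differed between treatments by 2.80 in calf 301 and 2.33 in calf 303, a pair also picked after the values had been seen. PRMT9 fell by 0.46 (adjusted p = 0.00912). PRMT3, PRMT6 and PRMT7 did not pass (0.04, -0.05 and 0.13).

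Lysine methyltransferases gave 2 rises and 3 falls among 6 genes (median -0.45), where 23.0% of all genes rose and 29.7% fell. The paralogues EZH1 and EZH2 are the alternative catalytic subunits of Polycomb complex PRC2, which writes repressive H3K27 methylation. EZH1 was at -0.77 and -0.50 in APP arrays and at 0.36 and 0.51 in PBS arrays, a fall of 2.10-fold (-1.07 ± 0.09, SD, n = 2 calves, adjusted p = 0.000151). EZH2, the form that prevails in dividing cells, was at 0.09 and 0.39 in APP arrays and at -0.49 and -0.13 in PBS arrays. It rose 1.47-fold (0.55 ± 0.05, adjusted p = 0.00277). EZH2 minus EZH1, again a pair picked after the values had been seen, differed between treatments by 1.72 in calf 301 and 1.53 in calf 303.

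KMT2E (MLL5), for which little methyltransferase activity is known, was at 0.34 and 0.30 in APP arrays and at -0.30 and -0.42 in PBS arrays, and rose 1.60-fold. Its 3 probe sets gave 0.32, 0.82 and 0.90. SETD7, which methylates H3K4 and many other proteins, was at -0.56 and -0.40 in APP arrays and at 0.39 and 0.31 in PBS arrays, a fall of 1.78-fold (adjusted p = 0.00063). SETD5 fell by 0.57, by nearly the same in both calves (-0.58 and -0.56). SETD3, now known as a histidine methyltransferase of actin, did not pass, at -0.10 in calf 301 and -0.55 in calf 303 (adjusted p = 0.0703).

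Of 9 histone lysine demethylases and JmjC proteins none rose, 3 fell and 6 did not pass (median -0.02), beside rises in 23.0% and falls in 29.7% of all genes. KDM1A (LSD1), the flavin-dependent demethylase of CoREST, was at -0.28 and -0.27 in APP arrays and at 0.43 and 0.22 in PBS arrays. It fell 1.52-fold (-0.60 ± 0.16, SD, n = 2 calves, adjusted p = 0.00273). KDM2B, which brings a Polycomb complex to CpG islands, fell by 0.60 as well, and the H3K9 demethylase KDM3A by 0.32 (adjusted p = 0.0295). KDM5C, an H3K4 demethylase, changed by 0.27 (adjusted p = 0.0508), and of its 5 probe sets 2 rose, by 0.52 and 0.64. It passed with robust eBayes, after quantile normalization and with the other probe set rules. JMJD1C had probe sets at -0.73, which was called, and 0.24, which was not. The H3K27 demethylase KDM6A (UTX) changed by -0.02 (adjusted p = 0.891).

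**Figure D3:**
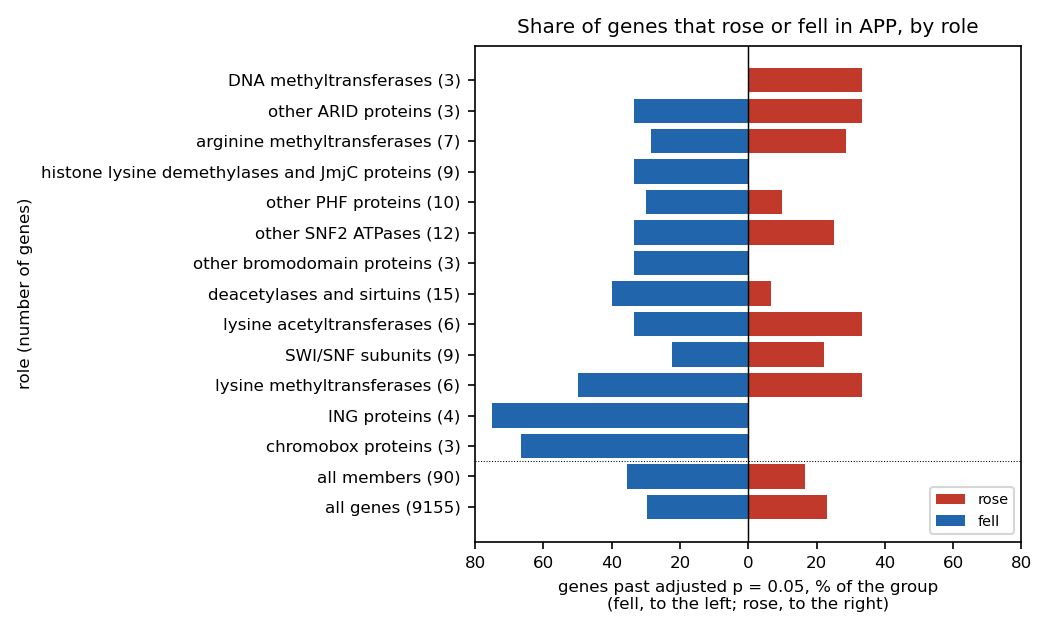
Share of genes past an adjusted p of 0.05 in each role group, with falls drawn to the left and rises to the right, the number of genes in brackets, and all members and all genes in the lowest rows. Falls were 35.6% and rises 16.7% of the members, against 29.7% and 23.0% of all genes, and most groups hold fewer than 10 genes.

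Of 3 DNA methyltransferase genes 1 rose and 2 did not pass, beside rises in 23.0% and falls in 29.7% of all genes. DNMT3A, which sets new methylation, was at 0.32 and 0.19 in APP arrays and at -0.32 and -0.27 in PBS arrays. It rose 1.46-fold (0.55 ± 0.12, SD, n = 2 calves, adjusted p = 0.00367), with 0.26 to 0.96 over 3 probe sets, of which 2 were called. The other enzyme for new methylation, DNMT3B, did not pass, at 0.44 for calf 301 and 0.07 for calf 303 (adjusted p = 0.112). DNMT1, which copies methylation at replication, changed by -0.09 (adjusted p = 0.438).

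Chromobox proteins read methylated histones. Of the 3 genes 2 fell, beside 29.7% of all genes. The chromobox protein CBX6, a Polycomb PRC1 subunit that binds H3K27 methylation, was at -0.79 and -0.88 in APP arrays and at 0.49 and 0.56 in PBS arrays. It fell 2.56-fold (-1.36 ± 0.11, SD, n = 2 calves, adjusted p = 6.43e-05). CBX3 (HP1 gamma), which binds H3K9 methylation, fell 1.79-fold, to -0.49 and -0.45 in APP arrays against 0.33 and 0.40 in PBS arrays. CBX8, another PRC1 subunit, changed by -0.03 (adjusted p = 0.807).

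ING proteins read H3K4 methylation and guide acetylase or deacetylase complexes. Of the 4 genes 3 were among the called falls, a call made for 29.7% of all genes. ING4, of the HBO1 acetylase complex, was at -0.59 and -0.58 in APP arrays and at 0.32 and 0.45 in PBS arrays. It fell 1.96-fold, and its 3 probe sets gave -1.06 to -0.87. ING2 and ING1, of the SIN3 deacetylase complex, fell by 0.80 and 0.53 (adjusted p = 0.000566 and 0.00607). ING3, of NuA4, was at 0.14 and -0.19 in APP arrays and at -0.26 and 0.16 in PBS arrays. Its change was thus 0.40 for calf 301 and -0.35 for calf 303, the widest gap between the calves of any member (adjusted p = 0.927).

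Of 3 further ARID proteins, ARID4B, a SIN3 partner, fell by 0.87 (-0.67 and -0.27 in APP arrays, 0.22 and 0.59 in PBS arrays, adjusted p = 0.000322). ARID3B rose by 0.52 (0.28 and 0.18 in APP arrays, -0.26 and -0.32 in PBS arrays, adjusted p = 0.00344). ARID5A, known for stabilising cytokine mRNAs, changed by 0.24 (adjusted p = 0.0739). Among 3 other bromodomain proteins BRD8, a NuA4 subunit, fell by 0.66, with -0.90 and -0.41 for its probe sets. The acetyl-lysine readers BRD2 and BRD3 changed by -0.07 and -0.08 (adjusted p = 0.596 and 0.626).

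The PHF proteins other than PHF10, which was counted with SWI/SNF, gave 3 falls and 1 rise among 10 genes (median -0.03). Falls were called for 29.7% and rises for 23.0% of all genes. PHF6, mutated in T cell leukaemias in humans, was at -0.50 in both APP arrays and at 0.24 and 0.31 in the PBS arrays. It fell by 0.77, with -1.11 to -0.22 over 3 probe sets, of which 2 were called. PHF20, a subunit of the MOF acetylase complex, fell by 0.70 and its relative PHF20L1 by 0.64. The riser, PHF5A (0.31, adjusted p = 0.0283), is a splicing factor subunit that carries the family name without being a histone modifier. PHF19, a PRC2 cofactor, did not pass, at 0.56 for calf 301 and 0.11 for calf 303 (adjusted p = 0.0659).

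Of the 90 members 49 were read by a single probe set and 41 by 2 to 5. Over their 154 probe sets 48 (31.2%) fell and 28 (18.2%) rose, where 23.6% and 16.3% of all 24016 probe sets did. Of the 24016, 10638 had no gene symbol, so the sets are unlike and the difference is no result about the members. Of the 41 genes with several, 15 had a range above 0.5 between probe sets and 15 had changes of both signs. All 20 called genes among them had every probe set on the same side of 0. Of the 21 that did not pass, 8 nevertheless held at least 1 called probe set, among them CHD2, KDM5C, JMJD1C, BRD7 and ARID1A.

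**Figure D4:**
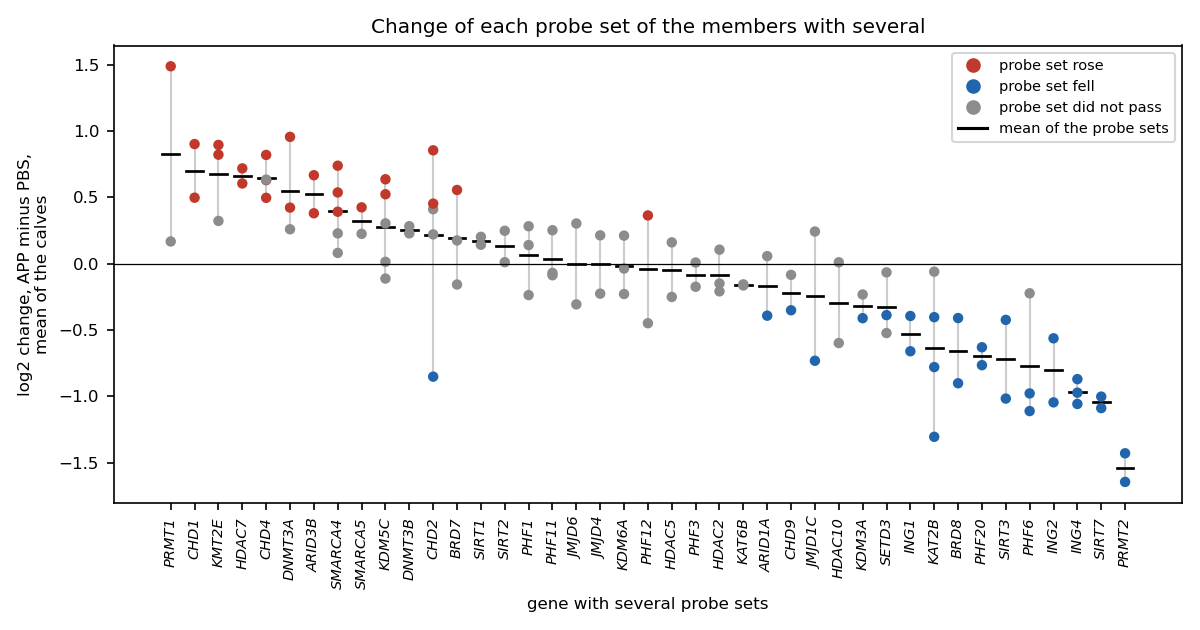
Log2 change, APP minus PBS in the mean of the calves, of each probe set of the 41 members with several, coloured by limma's call over all probe sets, with the mean per gene as a bar. CHD2 runs from -0.85 to 0.85, and PRMT1 holds 1 probe set at 1.49 and 1 at 0.17.

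Most members changed in the same direction in both calves. The sign was the same for 75 of 90 members, a count for which no share over all genes was taken. All 47 called members had the same sign in both calves, but the call itself favours genes whose changes agree between the calves. After ING3, the widest gaps were those of HDAC11 (0.63 in calf 301, 0.10 in calf 303) and HDAC10 (-0.04 and -0.55), and with 1 pair of arrays per calf no gap could be tested. The difference between the calves themselves, 303 minus 301 over both treatments, passed in limma's test for no member. At the same adjusted p of 0.05, 1.27% of all genes were called higher and 0.437% lower in calf 303. PHF19 came nearest (adjusted p = 0.0655). It was at -0.18 and -0.28 in the APP and PBS arrays of calf 303 against 0.70 and 0.15 in those of calf 301. At an unadjusted p under 0.05 there were 16 members. No share over all genes was taken at that threshold, so this count is no result about the members.

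**Figure D5:**
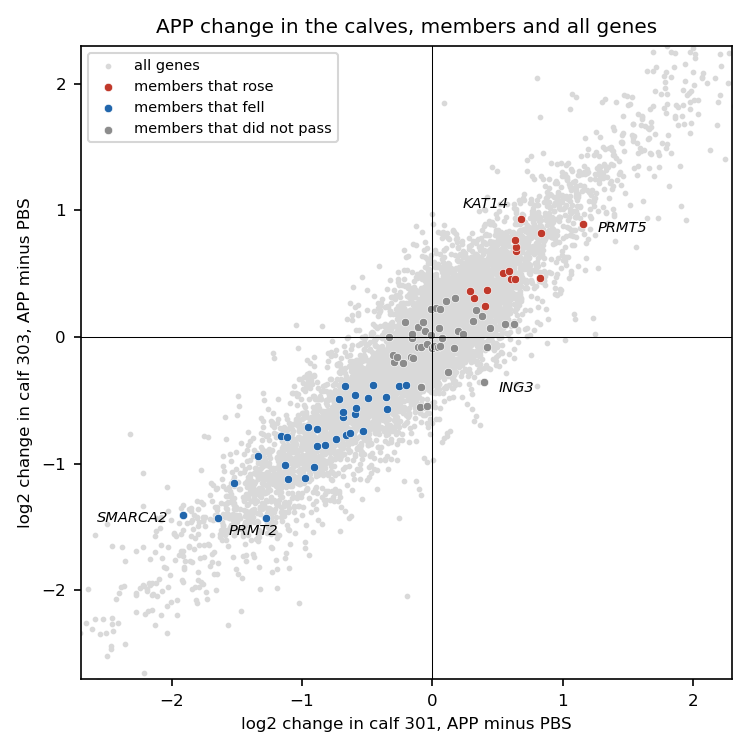
Log2 change, APP minus PBS, in calf 301 (horizontal) and calf 303 (vertical) for all genes (grey, small) and the members coloured by limma's call. The axes run from -2.7 to 2.3, which leaves 83 of 9155 genes outside. SMARCA2 and PRMT2 lie farthest to the lower left of the members, PRMT5 lies farthest to the upper right, and ING3 lies right of and below 0.

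Partners of the members that the symbol rule leaves out were read from 7 lists of complex subunits. Of 94 measured genes 25 rose, 30 fell and 39 did not pass, with a median of 0.003. Over all genes 23.0% rose and 29.7% fell, and the counts of the single lists below were not tested against these shares. In the SWI/SNF, INO80, SRCAP and ISWI list 8 of 22 rose and 8 fell. BAZ1A, the ISWI partner, rose by 1.60 ± 0.39 (SD, n = 2 calves) and the histone-fold protein POLE3 by 0.55, while the SRCAP subunits ACTR6 and ZNHIT1 fell by 0.94 and 0.87. The acetyltransferase list had 5 rises and 6 falls among 19, with the AAA ATPases of NuA4 and INO80 on the rising side. Of these RUVBL1 rose by 2.22 for calf 301 and 2.14 for calf 303. MORF4L2 rose by 0.96, while the coactivator NCOA1 fell by 1.37 and the NuA4 scaffold EPC1 by 0.96, with -1.75 to -0.04 over 3 probe sets for EPC1.

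Deacetylase complexes gave 3 rises and 1 fall among 8. The NuRD subunits GATAD2A (0.81) and MBD3 (0.69) rose, while the corepressor NCOR1 fell by 0.49, with -0.89 to 0.05 over 5 probe sets. Polycomb partners gave 2 rises and 2 falls among 12. PHC2 rose by 0.98, with 0.72 and 1.25 for its probe sets, and RNF2, the ubiquitin ligase of PRC1, by 0.67. YAF2 fell by 1.01. EED averaged -0.54, but the table pairs it with 23 probe sets that ran from -2.55 to 0.79, so its value is uncertain.

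Methyltransferases outside the symbol rule and their COMPASS partners fell in 8 of 16 cases and rose in 3. SMYD2 rose by 1.51 ± 0.17 (SD, n = 2 calves) and SMYD5 by 0.57. ASH2L, a COMPASS core subunit, fell by 0.90, and SMYD4 by 0.66, with -0.92 and -0.41 for its probe sets. Of 4 methyl-CpG genes 2 fell, MBD1 by 0.54 and ZBTB33 by 0.45. Histone chaperones gave 4 rises and 3 falls among 13. CHAF1B, which deposits histones at replication forks, rose by 1.25 and ANP32E, which removes the variant H2A.Z, by 0.96, while ASF1A and ANP32A fell by 1.29 and 1.24.

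The counts of members depended on the PBS arrays, of which there were only 2. Fitted without the block and without the PBS array of calf 301, 5 members rose and 21 fell, and without that of calf 303 it was 7 and 18. The calls over all genes dropped in the same fits, to 8.67% risers and 16.6% fallers without the PBS array of calf 301 and to 8.14% and 14.3% without that of calf 303. With all 4 arrays but no term for the animal, 10 members rose and 28 fell (15.3% and 23.6% of all genes), and CHD4, EZH2, KAT5, SMARCA5, KDM3A, PHF20L1 and PRMT9 were among those that no longer passed.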

How the data were processed

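RNA of sorted gamma delta T cells was measured on 4 Affymetrix bovine arrays, grouped by their titles. Probe sets were summarised with RMA by the authors, per the submitters' processing notes. The deposited values are ratios, a unit found from the values: after 1 factor per array, the middle values of every probe set averaged 1 to within 0.00051. Ratios were log2 transformed and not normalized further. Levels are lost, so probe sets near background are unknown, and the number of arrays limits the precision. After leaving out 112 control probe sets, 24016 were tested. Of these 13292 had 1 gene symbol, 86 several and 10638 none in the platform table. Symbols were updated by Entrez identifier through RefSeq's table for ARS-UCD2.0, which changed no member. A gene's probe sets were averaged.

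APP was compared with PBS in limma 3.58.1 (R 4.3.3, two-sided, calf as a block, Benjamini-Hochberg over 9155 genes), which left 1 residual and 5.86 prior degrees of freedom. Both treatments share their animals, per the titles, and the difference between the calves correlated between treatments (r = 0.514 across probe sets). The script was tested on simulated data. An exact permutation test cannot go below p = 0.33 with 2 arrays against 2. The labels name no separate cultures. The p-values rest on how far the APP change differed between these 2 calves, moderated by a variance drawn from all genes, which weighs more.

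Members and lists were chosen with earlier results of these data known. Named members are the 12 largest rises and falls past the threshold with 1 direction in both calves, up to 3 more per role, the 3 widest gaps between calves and the 3 widest ranges over probe sets. From each list of partners up to 2 genes per direction are named. Other members were named after their values had been seen. Other scalings, probe set rules, fits and left-out arrays were tried.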

Additional observations from a re-analysis of the deposited data

Results flagged for a closer look

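The hybridization controls, which are added at a fixed amount and were not used in the comparisons, averaged 0.28 and 0.55 in the APP arrays of calves 301 and 303 against -0.48 and -0.39 in the PBS arrays, a mean difference of 0.85. It shifts every member by the same amount if arrays are scaled to it.

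In 4 of the members named by rule the calves moved in opposite directions, and none of these differences was tested. The change of ING3 in calf 303 minus that in calf 301 was -0.75, that of BRD3 was -0.40 (0.12 in calf 301 and -0.27 in calf 303), that of BRD2 was 0.18 (-0.16 and 0.02) and that of CBX8 was -0.082 (0.01 and -0.07).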

How the results depend on the processing

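Of 61 members named by rule, all kept direction and call when arrays were centred on their medians and with robust eBayes, 1 lost its call after quantile normalization (KDM3A, -0.28), and with the median of the probe sets CHD2 gained one. With the probe set of largest SD CHD4 lost its call (0.63) and CHD2 gained one. Without the replicate block 10 members rose and 28 fell, and 7 named members lost their call (CHD4, EZH2, KAT5, KDM3A, PHF20L1, PRMT9 and SMARCA5). Requiring 2-fold changes in both calves left 0 rises and 6 falls. The members' median of -0.08 was -0.069 after quantile normalization and -0.15 with the probe set of largest SD per gene.

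Scaled to the hybridization controls, 0 members rose, 81 fell and the median was -0.93. With this scaling 7 members differed between the calves, a count for which no share over all genes was taken. The controls themselves differed between the calves, so the scaling moves the calf difference of every gene by the same amount. The count of 7 is therefore no result about the members. On that scale 20 changes reversed: PRMT1 -0.023, KAT14 -0.043, CHD1 -0.15, KMT2E -0.17, HDAC7 -0.19, CHD4 -0.21, EZH2 -0.30, DNMT3A -0.31, PHF10 -0.32, ARID3B -0.33, SMARCA4 -0.46, HDAC11 -0.49, KAT5 -0.53, SMARCA5 -0.53, CHD6 -0.58, DNMT3B -0.60, ARID5A -0.61, CHD2 -0.63, PRMT7 -0.73 and ING3 -0.83. PRMT5 kept its sign without passing. The cause of the shift was not tested.

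With 1 array left out in unblocked fits, 5 to 12 members rose, 18 to 27 fell and the median ran from -0.10 to -0.083. Signs changed for members that had not passed: ING3 (-0.19 to 0.23), BRD3 (-0.20 to 0.044), HDAC10 (-0.62 to 0.032), BRD2 (-0.16 to 0.021) and CBX8 (-0.067 to 0.0059). The lone array of a treatment was assumed to vary like the others.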
